A study of Mus musculus with 8 samples.

Results

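The genes described here carry lipid from the blood into the muscle fibre: the lipoprotein lipase system, the fatty acid transporters and the proteins that bind fatty acids and acyl-CoA inside cells. The set was chosen by name, as the rows of the deposited expression table whose symbol was one of Cd36, Lpl, Gpihbp1, Angptl4, Fabp3, Fabp4, Slc27a1, Slc27a4, Vldlr and Dbi, and all 10 were found, each in 1 row, among 54091 rows. The white part of the quadriceps, a thigh muscle rich in fast glycolytic fibres, was sampled from 8 male mice aged 11 to 14 weeks after an overnight fast of 14 hours, with the tissue taken in the morning. The 4 floxed controls (genotype Loxp/Loxp, mice 1 to 4) carried floxed Acot2 alleles, and the 4 muscle knockouts (CKM Cre, mice 5 to 8) carried Cre recombinase from the creatine kinase promoter, which acts in muscle fibres and leaves Acot2 in the other cells of the tissue. All 8 mice were fasted, so no value here shows the effect of fasting, and no group with Cre alone was analysed here, so Cre and the loss of Acot2 cannot be told apart. Acot2 encodes a thioesterase of the mitochondrial matrix that releases free fatty acid from acyl-CoA, and the title of the series asks about fatty acid oxidation under differing lipid supply; the comparison below asks whether transcripts of the lipid supply route differed between the genotypes.

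Triglyceride reaches muscle in very low density lipoproteins and chylomicrons. Lipoprotein lipase, made by the fibres, is carried to the capillary wall by the endothelial protein GPIHBP1 and splits the triglyceride there, while ANGPTL4, a secreted protein induced by fatty acids and fasting, inactivates the lipase. Released fatty acids enter through CD36 and the fatty acid transport proteins, bind to FABP3 in the fibre or FABP4 in endothelium and fat cells, and as acyl-CoA bind to the acyl-CoA-binding protein encoded by Dbi.

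All values are the authors' normalized counts, that is reads per gene divided by 1 size factor per library, or their log2 with 1 added. Reads on genes ranged from 28659632 to 40977866 per library. Differences are knockout minus floxed control on that log2 scale, from limma over the 13141 genes that averaged 10 or more normalized counts, with the standard error (SE) of the fit, and a gene was called at a Benjamini-Hochberg adjusted p under 0.05. For Acot2 (gene ID 171210) the floxed mean was 2406 ± 1099 normalized counts (SD, n = 4) and the knockout mean 467 ± 130 (SD, n = 4), and the groups did not overlap (limma adjusted p = 0.0870). Its two-sided exact p by permutation was 0.0286, and 4 mice against 4 allow none smaller. Titin (Ttn) took from 11.8% to 14.9% of normalized counts in floxed controls, with the most in floxed control 4. It took 13.9% in knockout 5 but 8.67%, 8.34% and 9.22% in knockouts 6, 7 and 8. Results that turn on floxed control 4 and knockout 7, the mice with the highest and lowest share, are given with and without them. The labels do not say that the mice shared litters or days, and they name no sequencing batch.

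None of the 10 genes was called different between the genotypes. With limma, 0 of 10 passed an adjusted p of 0.05, against 0% of all genes tested, and adjusted p ranged from 0.746 to 0.960. Acot2 itself did not pass (limma adjusted p = 0.0870), so the lack of a call does not show that a gene was unchanged. At an unadjusted p under 0.05 there were 0 of the 10 and 6.16% of all genes (2.47% with the higher value in knockouts), and the groups separated fully in 0 of the 10, against 2.75% of all genes (1.13% with the higher value in knockouts). In 9 of the 10 genes the knockout value was higher, against 50.6% of all genes, and the median difference was 0.22, against 0.0031 over all genes. Without knockout 7 alone, 6 of 10 were higher and the median was 0.025. Without floxed control 4 alone, 9 of 10 were higher and the median was 0.13. Without both, 5 of 10 were higher and the median was -0.011; these 2 mice were picked because they held the highest and lowest values of several of these genes, so leaving them out lowers both numbers by construction. With limma voom on recovered reads, 0 genes were called and 756 had an unadjusted p under 0.05, against 810 in the fit above.

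**Figure D1:**
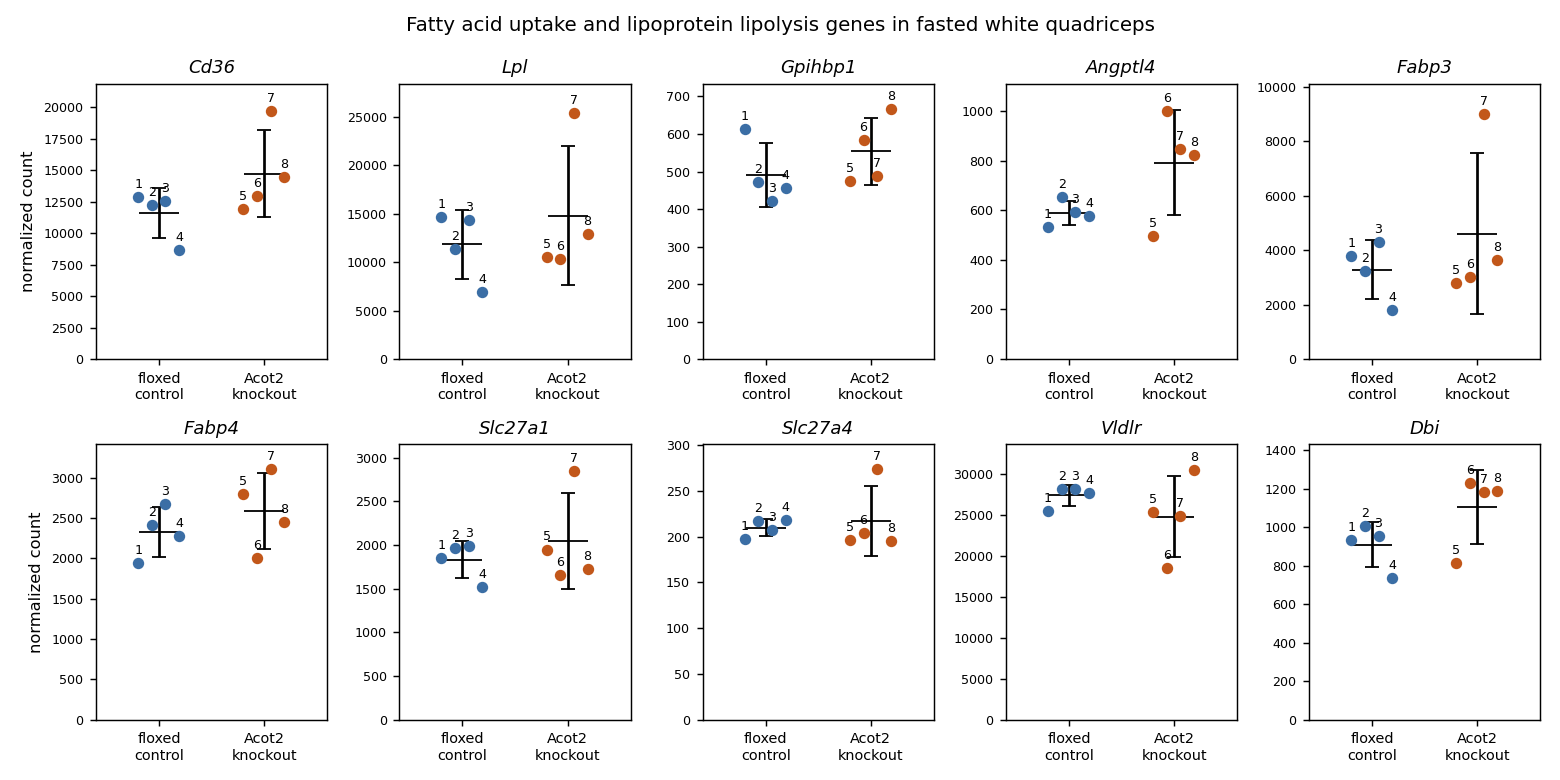
Normalized counts (y axis, linear from 0) of the 10 genes in 4 floxed control mice (blue, numbered 1 to 4) and 4 Acot2 knockout mice (orange, 5 to 8), with the mean and SD of each group in black. Knockout 7 stands at the top of Cd36, Lpl, Fabp3, Fabp4, Slc27a1 and Slc27a4, and 3 knockouts lie above all floxed controls for Angptl4, Dbi and Cd36.

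**Figure D2:**
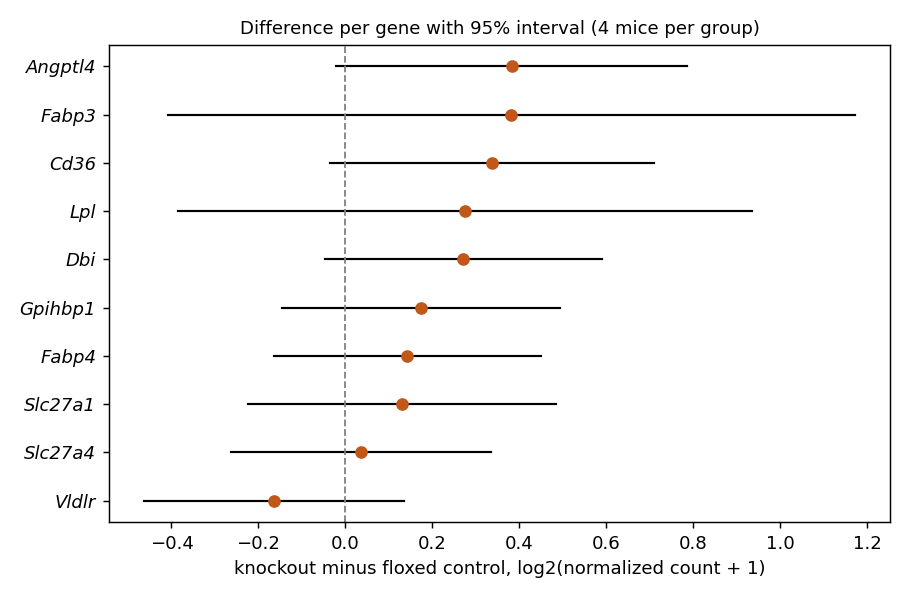
Difference between knockout and floxed control for each gene (x axis, log2 scale; dots) with the 95% interval of the limma fit (lines), 4 mice per group. Every interval crosses 0; Fabp3 and Lpl have the widest.

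Lipoprotein lipase and its regulators came out as follows. Lpl (gene ID 16956; chromosome 8, 68880491 to 68907448, plus strand, GRCm38) encodes the lipase itself. In floxed controls 1 to 4 there were 14622.5, 11357, 14392 and 6942 normalized counts of Lpl, and knockouts 5 to 8 had 10551.5, 10301.5, 25391 and 12893. Only knockout 7 lay above the floxed range, and the other 3 knockouts fell inside it. The group means were 11828 ± 3581 (SD, n = 4) and 14784 ± 7167 (SD, n = 4), and the log2 difference was 0.28 (SE 0.30, 95% interval -0.38 to 0.94; limma adjusted p = 0.840). Without knockout 7 that difference was -0.020, and without both knockout 7 and floxed control 4 it was -0.26.

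Angptl4 (gene ID 57875; chromosome 17, 33773750 to 33781830, minus strand) encodes the inhibitor of the lipase. Its normalized counts were 533, 652, 594 and 578 for floxed controls 1 to 4 and 496, 998, 848 and 822 for knockouts 5 to 8. The floxed controls lay close together, 3 knockouts were above all of them and knockout 5 was below all of them. The means were 589 ± 49.2 (SD, n = 4) and 791 ± 211 (SD, n = 4), a log2 difference of 0.38 (SE 0.18, interval -0.021 to 0.79) with an adjusted p of 0.746 by limma. Leaving out knockout 5 moved the difference to 0.59, where the limma adjusted p was 0.0868 (0.0868 to 0.994 over all settings tried), and leaving out knockout 6 moved it to 0.26. Knockout 5 had the lowest value of Angptl4, so leaving it out raises the difference by construction. Without knockout 5, the number of all genes at an unadjusted p under 0.05 by limma also rose, from 810 to 2200.

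Gpihbp1 (gene ID 68453; chromosome 15, 75596628 to 75599481, plus strand) encodes the protein that carries the lipase across the capillary endothelium. Floxed controls had 614, 473, 421 and 455 normalized counts of Gpihbp1 and knockouts had 476, 583, 488 and 667. The groups overlapped, with the highest value in knockout 8 and the lowest in floxed control 3. The log2 difference was 0.17 (SE 0.15, interval -0.15 to 0.49; limma adjusted p = 0.806), with means of 491 ± 85.1 (SD, n = 4) and 553 ± 89.5 (SD, n = 4). It was 0.29 without floxed control 1, 0.11 without floxed control 3 and 0.080 without knockout 8.

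Balances within the system were compared as ratios inside each library, in which the scaling of a library cancels. Of 5 ratios tested, 0 differed by a two-sided exact permutation test (70 ways to assign 4 mice to each group), and each had a p of 1 after adjustment over the 5. The log2 ratio of Angptl4 to Lpl, the inhibitor against the enzyme, was -4.27 ± 0.53 (SD, n = 4) with Acot2 and -4.16 ± 0.65 (SD, n = 4) without it (exact p = 0.8). Knockout 6 had the highest of the 8 ratios, -3.37, and knockout 7 the lowest, -4.90, so the knockouts spanned both ends. The log2 ratio of Gpihbp1 to Lpl was -4.54 ± 0.48 (SD, n = 4) against -4.64 ± 0.72 (SD, n = 4; exact p = 0.83). Gpihbp1 relative to the mean of 12 endothelial markers was -0.59 ± 0.33 (SD, n = 4) in either genotype (exact p = 1).

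Beside Gpihbp1, the endothelial markers themselves had slightly higher values in the knockouts. Of 12 tested, 0 were called and 10 were higher, against 50.6% of all genes tested, with a median difference of 0.14. Their summed level ran from 11639 to 12698 normalized counts in floxed controls and from 12832 to 15356 in knockouts, without overlap. The sums of 5 mural cell markers did not overlap either (11623 to 14764 and 14887 to 16567). With each marker weighted equally, as the mean log2 deviation from the floxed mean, the groups overlapped for both lists. Endothelial markers then ran from -0.12 to 0.10 in floxed controls and from 0.053 to 0.36 in knockouts. Mural markers ran from -0.25 to 0.27 in floxed controls and from 0.11 to 0.35 in knockouts. None of the 12 endothelial markers was at 0 in all libraries. Ptprb was the most abundant of them (mean 3144 normalized counts) and Emcn the least (210.5). Whether the endothelial share of the tissue plays a part in the Gpihbp1 values was not tested, and in a bulk sample more cells of a type and more RNA per cell cannot be told apart.

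Fatty acid entry through the membrane was represented by Cd36, Slc27a1 and Slc27a4. Cd36 (gene ID 12491; chromosome 5, 17781690 to 17888801, minus strand) encodes the main fatty acid translocase of muscle and its endothelium. In floxed controls 1 to 4 there were 12880, 12211, 12568 and 8653 normalized counts of Cd36, and knockouts 5 to 8 had 11870, 12903, 19689 and 14431. Knockouts 6, 7 and 8 exceeded all floxed controls, knockout 6 by a narrow margin, and floxed control 4 lay well below its group. The means were 11578 ± 1969 (SD, n = 4) and 14723 ± 3474 (SD, n = 4), a log2 difference of 0.34 (SE 0.17, interval -0.036 to 0.71; limma adjusted p = 0.746). The difference was 0.19 without knockout 7, 0.20 without floxed control 4 and 0.054 without both.

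Slc27a1 (gene ID 26457; chromosome 8, 71568882 to 71587302, plus strand) encodes FATP1, a transport protein with acyl-CoA synthetase activity. Its normalized counts were 1857, 1970, 1985 and 1525 in floxed controls and 1949, 1658, 2851 and 1728 in knockouts. Again only knockout 7 lay above the floxed range. The log2 difference was 0.13 (SE 0.16, interval -0.22 to 0.49; limma adjusted p = 0.857), and without knockout 7 it was -0.040. Slc27a4 (gene ID 26569; chromosome 2, 29802634 to 29817522, plus strand), which encodes the related FATP4, had 197, 217, 207 and 218 normalized counts in floxed controls and 197, 204, 274 and 195 in knockouts. Apart from knockout 7, all 7 mice lay between 195 and 218. The log2 difference of Slc27a4 was 0.036 (SE 0.14, interval -0.26 to 0.34; limma adjusted p = 0.960), and its interval reached from 0.833-fold to 1.26-fold. The log2 ratio of Slc27a1 to Slc27a4 was 3.12 ± 0.21 (SD, n = 4) for the floxed group and 3.21 ± 0.16 (SD, n = 4) for the knockout group (exact permutation p = 0.543).

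Uptake of whole particles was represented by Vldlr (gene ID 22359; chromosome 19, 27216484 to 27254231, plus strand), which encodes the very low density lipoprotein receptor, a partner of lipase action in fasted tissue. It was the 1 gene of the 10 with a lower mean in the knockouts. Floxed controls had 25541, 28252, 28175 and 27653 normalized counts of Vldlr, and knockouts had 25361, 18543.5, 24855 and 30556. In this gene 3 knockouts lay below every floxed control, by the largest margin in knockout 6, and knockout 8 lay above all of them. The log2 difference was -0.16 (SE 0.14, interval -0.46 to 0.14; limma adjusted p = 0.805) and it was -0.031 without knockout 6.

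Binding proteins of the cell interior followed. Fabp3 (gene ID 14077; chromosome 4, 130308595 to 130315463, plus strand) encodes the fatty acid-binding protein of heart and muscle fibres. In floxed controls 1 to 4 there were 3774, 3232, 4305 and 1812 normalized counts of Fabp3, and knockouts 5 to 8 had 2778, 3028, 8995 and 3626. The highest and lowest of the 8 mice, knockout 7 and floxed control 4, differed 4.96-fold, the widest span among the 10 genes, and the other 3 knockouts lay inside the floxed range. The log2 difference was 0.38 (SE 0.36, interval -0.41 to 1.17; limma adjusted p = 0.83) with all mice and 0.00057 without knockout 7. Reads of the processed pseudogene Fabp3-ps1, at a mean of 20.4 normalized counts, and of the genes Zcchc17 and Gm10570 on the opposite strand may be shared with Fabp3, since the strand setting of the counting is not given in the sources used here.

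Fabp4 (gene ID 11770; chromosome 3, 10204088 to 10208576, minus strand) encodes the fatty acid-binding protein of fat cells, macrophages and capillary endothelium. It had 1946, 2418, 2676 and 2273 normalized counts in floxed controls and 2793, 2000, 3104 and 2451 in knockouts. Knockouts 5 and 7 lay above the floxed range and the others inside it. The log2 difference was 0.14 (SE 0.14, interval -0.16 to 0.45; limma adjusted p = 0.833). It was 0.049 without knockout 7, 0.059 without floxed control 1 and 0.26 without knockout 6. The log2 ratio of Fabp3 to Fabp4 was 0.43 ± 0.55 (SD, n = 4) for the floxed group and 0.67 ± 0.64 (SD, n = 4) for the knockout group (exact permutation p = 0.6). Adipocyte markers, which include Adipoq and Cidec, were present, and 6 of 7 passed the filter. Their means ran from 20.6 normalized counts for Retn to 702 for Cfd. Of the 6, 0 were called and 4 were higher, with a median of 0.22. The summed level of the adipocyte markers ran from 243 to 2186 normalized counts in floxed controls and from 581 to 1954 in knockouts. The lowest sum was in floxed control 1 and the highest in floxed control 3, the mice with the least and the most Fabp4 of their group. Among knockouts the lowest sum was in knockout 8, with 581, while knockout 6, with the least Fabp4, had 711. Macrophage markers were higher in 8 of 8, against 50.6% of all genes tested, with 0 called and a median of 0.54. Their sums ran from 1309 to 2316 in floxed controls and from 2155 to 3903 in knockouts, and these overlapped. With each marker weighted equally, as the mean log2 deviation from the floxed mean, the groups did not overlap. Macrophage markers then ran from -0.48 to 0.29 in floxed controls and from 0.31 to 1.16 in knockouts. A part of fat cells or macrophages in the Fabp4 values was not tested.

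Dbi (gene ID 13167; chromosome 1, 120113280 to 120121078, minus strand) encodes the acyl-CoA-binding protein, which holds long-chain acyl-CoA in the cytosol. In floxed controls 1 to 4 there were 934, 1005, 956 and 738 normalized counts of Dbi, and knockouts 5 to 8 had 816, 1228, 1181 and 1187. As for Angptl4, knockouts 6, 7 and 8 lay above every floxed control and knockout 5 did not. The means were 908 ± 118 (SD, n = 4) and 1103 ± 193 (SD, n = 4), a log2 difference of 0.27 (SE 0.14, interval -0.047 to 0.59; limma adjusted p = 0.746). The difference was 0.41 without knockout 5, 0.17 without floxed control 4 and 0.14 without both floxed control 4 and knockout 7.

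Some of the 10 genes varied together among the mice. Cd36, Lpl, Fabp3 and Slc27a1 were highest in knockout 7 and lowest in floxed control 4. After removal of each group's mean, Pearson's r over the 8 libraries was 0.99 for Lpl with Fabp3, 0.98 for Cd36 with Lpl and 0.97 for Cd36 with Fabp3, and it was 0.88, 0.73 and 0.77 over the 6 libraries left without those 2 mice. For Slc27a1 the values were 0.90 with Fabp3, 0.89 with Lpl and 0.84 with Cd36, and these turned to -0.34, -0.24 and -0.66 without the 2 mice. For Angptl4 with Dbi, r was 0.82 over 8 libraries and 0.97 without floxed control 4 and knockout 7. This r was 0.78 without knockouts 6 and 7, the libraries farthest from the median of Angptl4. Gpihbp1 and Fabp4 ran in opposite directions, with r of -0.76 over 8 libraries and -0.76 without floxed control 4 and knockout 7. Their r was -0.90 without floxed control 1 and knockout 8, the libraries farthest from the median of Gpihbp1. These r values are descriptions, chosen for their size among all pairs of the 10 genes, and the genes of a library share its scaling.

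**Figure D3:**
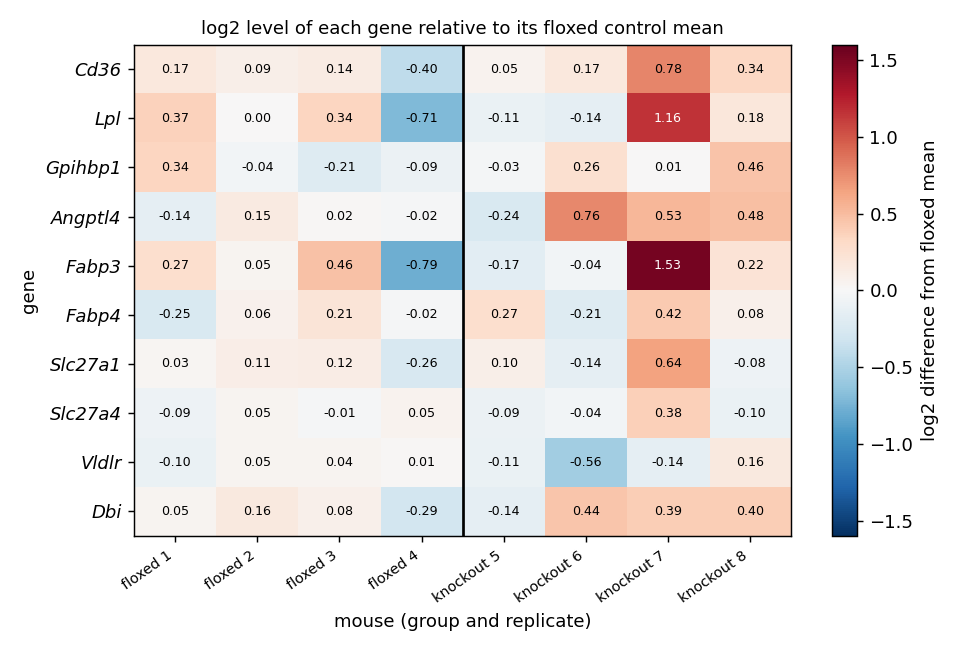
Level of each gene (rows) in each mouse (columns) as the log2 difference from the floxed control mean of that gene, with the value written in each cell; the vertical line parts floxed controls from knockouts. The column of knockout 7 holds the highest values of Lpl (1.16) and Fabp3 (1.53), and the column of floxed control 4 the lowest (-0.71 and -0.79).

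Genes whose levels ran most like Cd36, Lpl, Fabp4 and Gpihbp1 were picked by the highest r, over the same 8 libraries. The search covered 9129 genes with a mean of at least 100 normalized counts, other members of the set included. For Cd36 they were Eci1 and Hadha, which encode enzymes of mitochondrial beta-oxidation, and Ogfr, with r of 0.99, 0.99 and 0.99 (0.96 for Eci1, 0.86 for Hadha and 0.98 for Ogfr over 6 libraries, without floxed control 4 and knockout 7). For Lpl they were Fabp3, the mitochondrial carrier gene Slc25a34 and the epoxide hydrolase gene Ephx2, with r from 0.98 to 0.99. Fabp3 is itself a member of the set, and its r with Lpl is the value already given above. For Fabp4 they were Sh2b1, Cmtm4 and Vegfa, the last encoding an endothelial growth factor, each with r of 0.97. For Gpihbp1 they were Vbp1, Ccdc57 and Toporsos, with r from 0.97 to 0.98, and none of these 3 is an endothelial marker on the list used here. They are the highest of a wide search over few libraries and are given as a description.

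Beside the values of Cd36, Lpl and Fabp3, markers of slow or oxidative fibres differed widely between mice. Knockout 7 had the highest summed level of the 8 markers, 61441 normalized counts, against 5669 to 20457 in floxed controls and 5401 to 9270 in the other knockouts, and most of it was Myh2, the myosin of fast oxidative fibres (59055 in knockout 7 and 4678 in floxed control 4). Floxed control 4 had 6161, floxed control 2 had 5669 and knockout 8 had 5401. With each marker weighted equally, as the mean log2 deviation from the floxed mean, knockouts 5, 6 and 7 (1.24, 1.78 and 2.32) lay above every floxed control (-0.97 to 0.95) and knockout 8 (-0.76) did not. Myl3, a slow myosin light chain gene singled out after its values were seen, ran from 1.04 to 33.1 normalized counts in floxed mice and from 38.8 to 107 in knockouts, without overlap (limma adjusted p = 0.746). The lowest of these values, in floxed control 3, stands for 1 read. Of all genes tested, 2.75% separated fully. Of the 8 markers 0 were called and 7 were higher in the knockouts, against 50.6% of all genes tested, with a median difference of 1.22. The least abundant, Tnnc1, had a mean of 25.8 normalized counts. Muscle fibre markers were abundant in all mice, with sums from 5693440 in knockout 7 to 10143700 in floxed control 4. Ttn was the most abundant of them, with a mean of 3976240 normalized counts. With each of these markers weighted equally, knockout 7 was lowest (-0.38) and knockout 6 highest (0.28), with floxed control 4 at 0.10. A part of fibre type in the values of Cd36, Lpl and Fabp3 was not tested.

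**Figure D4:**
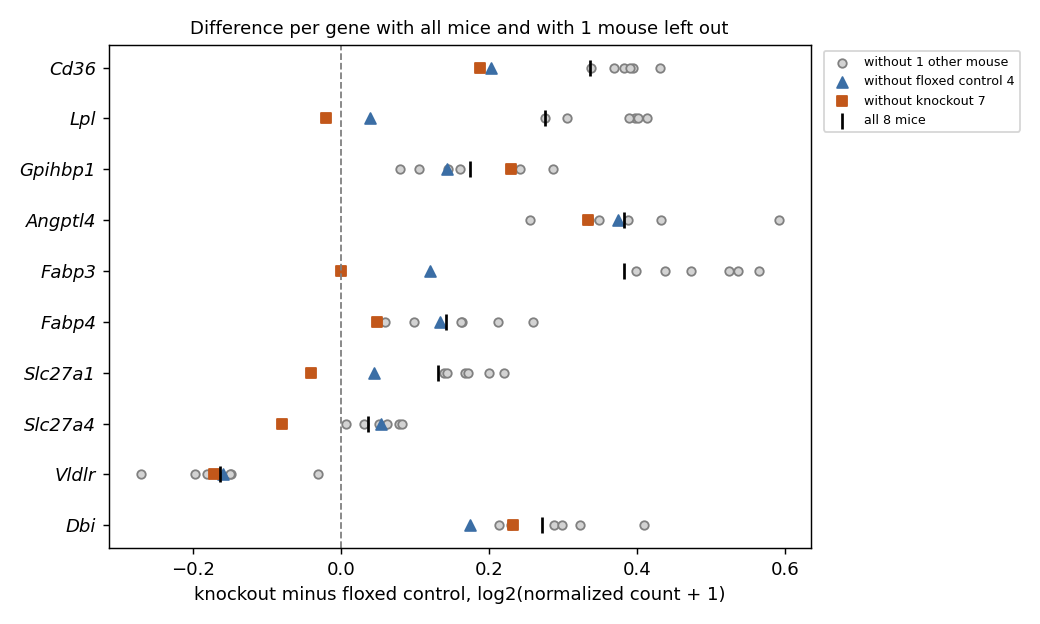
Difference between knockout and floxed control for each gene (x axis, log2 scale) with all 8 mice (black bar), without floxed control 4 (blue triangle), without knockout 7 (orange square) and without each other mouse (grey). Leaving out knockout 7 takes Lpl, Fabp3, Slc27a1 and Slc27a4 to or below 0, while Angptl4 and Dbi stay above 0 in each case.

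Promoter sequence is shown for 2 genes that were highest in knockout 7 and lowest in floxed control 4, Cd36 and Slc27a1. RefSeq promoters (GRCm38.p6) were matched for 6 of the 10 genes, Cd36, Fabp3, Slc27a1, Slc27a4, Vldlr and Dbi, with 10 start sites between them. The 250 bases before each start were searched on both strands for the nuclear receptor hexamer AGGTCA, for the GC box GGGCGG and for TATAAA, and for the direct repeat of that hexamer with 1 base between, the element that PPAR receptors bind. The repeat was found in 0 of the 10 windows, against 0.0335% of 32851 windows of all genes. The hexamer was found in 1 of the 10, that of Cd36, against 14.0% of all windows; the GC box in 5 of the 10 against 32.7%; and TATAAA in 0 of the 10 against 12.4%. No match means only that these letters are absent from these windows. The 2 windows below are written 5′ to 3′ on the strand of the gene, with matches in capitals. The Cd36 window (chr5:17835897-17836146, minus strand) holds the hexamer, read on the opposite strand 228 bases before the start, and a pair of GC boxes, and lies in no annotated exon. The Slc27a1 window (chr8:71568621-71568870, plus strand, the first of 3 start sites) holds none of these motifs, while the windows of its other start sites hold 1 and 3 GC boxes.
Cd36: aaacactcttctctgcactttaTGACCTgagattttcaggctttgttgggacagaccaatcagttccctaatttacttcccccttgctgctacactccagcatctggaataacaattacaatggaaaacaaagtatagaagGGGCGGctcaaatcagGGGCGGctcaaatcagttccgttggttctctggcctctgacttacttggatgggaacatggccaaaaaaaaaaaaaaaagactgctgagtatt
Slc27a1: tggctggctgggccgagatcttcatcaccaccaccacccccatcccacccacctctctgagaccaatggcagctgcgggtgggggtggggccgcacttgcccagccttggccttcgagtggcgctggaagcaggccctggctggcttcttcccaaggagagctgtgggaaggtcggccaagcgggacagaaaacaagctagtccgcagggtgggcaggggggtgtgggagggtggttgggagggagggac

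Levels were also compared between the genes per kilobase of the longest annotated coding transcript (GENCODE M21), a scale on which the counts of short and long transcripts can be set side by side. Fabp3 stood first with 4792 ± 2639 normalized counts per kilobase (SD over all 8 mice), followed by Cd36 with 3869 ± 914, Vldlr with 3277 ± 452, Lpl with 3234 ± 1331 and Fabp4 with 2743 ± 439. These 5 did not separate: Fabp3 was above Cd36 in 5 of 8 mice, Cd36 above Vldlr in 7, Vldlr above Lpl in 5 and Lpl above Fabp4 in 6. Dbi followed with 1767 ± 318 per kilobase, Slc27a1 with 694 ± 144, Gpihbp1 with 316 ± 53.0, Angptl4 with 209 ± 53.9 and Slc27a4 with 52.7 ± 6.38, and from Fabp4 downwards each gene lay above the next in 8 of 8 mice. Slc27a1 thus exceeded its relative Slc27a4 in each of the 8 mice. Several coding transcripts are annotated for Cd36 (6), Vldlr (5), Slc27a1 (4), Gpihbp1 (3) and Dbi (3), and their places in this order can depend on which one is used.

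Related genes of the route were taken from 7 lists, and 0 genes of any list were called. Of 18 partners of lipoprotein lipase, 11 were tested and 5 were higher, with a median of -0.033; those with the smallest p were Furin, a protease that cleaves the lipase and ANGPTL4, at -0.28 (SE 0.12), and the sorting receptor gene Sort1 at -0.24 (SE 0.11), and in both 3 knockouts lay below every floxed control. The other 7 on that list fell under the filter. Among lipoprotein receptors, 4 of the 8 tested were higher (median -0.029). Mylip, a ubiquitin ligase that degrades lipoprotein receptors including VLDLR, had 676, 727, 716 and 576 normalized counts in floxed controls and 699, 913, 783 and 917 in knockouts, a difference of 0.29 (SE 0.12), with 3 knockouts above every floxed control; Lrp8, a close relative of Vldlr, was at -0.74 (SE 0.43) at a low level of 20.4 ± 3.86 and 13.2 ± 7.97 normalized counts (SD, n = 4 each). Of the paralogues of the transporters and binding proteins, 3 of 12 were tested, and 2 of these were higher with a median of 0.34: Got2, an aminotransferase that is also described as a fatty acid-binding protein of the plasma membrane, was at 0.34 (SE 0.16) and Fabp5 at 0.47 (SE 0.34). The adjusted p of these 6 genes was 0.746 to 0.772 by limma.

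Caveolar genes and those that handle CD36 had 11 of 12 higher, against 50.6% of all genes tested, with a median of 0.052. They were led by Cav3, the caveolin of muscle, at 0.29 (SE 0.14), and Lypla1, a depalmitoylating thioesterase, at 0.23 (SE 0.12). Among relatives of Dbi, 3 of 5 tested were higher with a median of 0.041, and the groups separated for Acbd3, a Golgi protein with an acyl-CoA-binding domain: floxed controls had 726, 698, 679 and 730 normalized counts and knockouts 621, 492, 650 and 542, a difference of -0.30 (SE 0.10; limma adjusted p = 0.746). Eci2 of the same list was at 0.20 (SE 0.12). Regulators of lipid transfer through endothelium had 7 of 9 higher with a median of 0.034; Flt1, the receptor for VEGF-B, was above every floxed control in 4 of 4 knockouts (0.28, SE 0.088), and the transcription factor gene Meox2 was at 0.38 (SE 0.21). Flt1 is also 1 of the 12 endothelial markers. Acbd3 and Flt1 are named for a small p, a choice that favours separated groups, and 2.75% of all genes separated fully. Fasting-responsive targets of PPAR had 7 of 9 higher with a median of 0.13, with Acaa2, a thiolase of beta-oxidation, at 0.43 (SE 0.24) and the carnitine-acylcarnitine carrier gene Slc25a20 at 0.28 (SE 0.21). Acaa2 and Slc25a20 were highest in knockout 7 (4225 and 3221 normalized counts) and lowest in floxed control 4 (1361 and 1290), as Cd36, Lpl and Fabp3 were.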

How the data were processed

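Total RNA of 8 mice was sequenced after a stranded library kit, per the labels' protocols. DESeq2, HTSeq, STAR, FastQC and cutadapt are named in the submitters' processing notes, with the build GRCm38; for versions, annotation and strand setting: not given in the sources used here. Values are log2 as deposited by the authors: judged from the numbers, log2(n + 1), with n the read count over 1 size factor per library. Values up to 200 reads were whole reads within 0.1 in 100% of cases. Columns were matched to samples by the mouse number in the title. The groups were compared with limma 3.58.1 (R 4.3.3, eBayes with trend, 95% intervals) over 13141 of 54091 rows. The fit was run on simulated counts, drawn independently for each gene with a fixed spread. They hold no variation shared by the genes of a mouse, so that run does not show how many changes would be called here. The most alike libraries, floxed control 4 and knockout 5, differed by a chi-square per degree of freedom of 19.5. Each title has its own mouse number, and p-values measure the spread between these mice. Related genes named with values are the 2 of smallest p per list, and Acbd3 and Flt1 are among these. The genes, lists and tests were chosen with earlier results of these data known. Alternatives covered the pseudocount, low-value filter, scaling, model, a covariate and left-out mice. Positions come from GENCODE M21 and count from 1.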

Additional observations from a re-analysis of the deposited data

Results flagged for a closer look

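Within a group of 4 mice, a mouse was set apart when its gap to the nearest other mouse, as a share of the group's range, exceeded Dixon's 95% critical value. Chance gives this in about 1 group in 20, and 60 groups were examined. Floxed control 4 stood below its group for Cd36 (log2 level 13.08 against 13.58 to 13.65, gap 0.866 of the range), for Slc25a20 (10.33 against 10.82 to 10.88, gap 0.898) and for the log2 ratio of Slc27a1 to Slc27a4 (2.80 against 3.18 to 3.25, gap 0.837). Knockout 7 stood above its group for Slc27a4 (8.10 against 7.61 to 7.68, gap 0.870). Knockout 5 stood below its group for Dbi (9.67 against 10.21 to 10.26, gap 0.906).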

How the results depend on the processing

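None of the 10 genes was called in any of 21 alternatives. Leaving out both floxed control 4 and knockout 7, and the block, were chosen after seeing the data. The signs of Cd36, Gpihbp1, Angptl4, Fabp4, Dbi and Vldlr held in all 21. Without a low-value filter, 1 gene in all was called, Acot2 (log2 difference -2.30, limma adjusted p = 0.00421; 0.00421 to 0.758 over all alternatives). Without both floxed control 4 and knockout 7, 5 of 10 genes were higher, the median was -0.011, and the differences were -0.26 for Lpl, -0.26 for Fabp3, -0.13 for Slc27a1 and -0.061 for Slc27a4; the log2 ratio differences were 0.58 for Angptl4 to Lpl, 0.46 for Gpihbp1 to Lpl, -0.30 for Fabp3 to Fabp4, -0.065 for Slc27a1 to Slc27a4 and 0.011 for Gpihbp1 to endothelial markers. Without both floxed control 4 and knockout 5, the ratio differences were 0.045 for Gpihbp1 to Lpl, -0.041 for Slc27a1 to Slc27a4 and 0.097 for Gpihbp1 to endothelial markers. Leaving out 1 mouse at a time gave -0.020 to 0.41 for Lpl, -0.040 to 0.22 for Slc27a1 and -0.080 to 0.083 for Slc27a4, with the lowest of each without knockout 7, and ratio differences of -0.16 to 0.35, -0.28 to 0.25, -0.048 to 0.47, -0.0096 to 0.16 and -0.11 to 0.15 in the order above. It moved the number of genes at an unadjusted p under 0.05 from 810 to 367 without floxed control 4, 518 without floxed control 1, 422 without knockout 6, 456 without knockout 8 and 2200 without knockout 5. The cause was not tested. The titles share no replicate number between groups and so pair no mice. The column headings count 1 to 4 in each group. Over all genes tested, same-numbered mice did not deviate together (r -0.16 to 0.28, 1 of 4 floxed controls closest to its own number). With a replicate block on those numbers, 0 genes were called and 931 had an unadjusted p under 0.05. With that block the SE fell from 0.36 to 0.24 for Fabp3, from 0.30 to 0.22 for Lpl and from 0.18 to 0.13 for Angptl4. It rose from 0.145 to 0.149 for Gpihbp1 and from 0.136 to 0.142 for Slc27a4.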
